A study of Mus musculus with 2 samples.

Results

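Interferon response genes are the genes that cells switch on when interferon binds its receptor, and 38 of them were described here in CD8 T cells that had been cultured toward interleukin-17 production (Tc17 cells). The genes were chosen by symbol, and 37 of the 38 stood in the gene list of the deposited files, which held 32285 genes in all. The antiviral GTPase gene Mx1 was not analysed here. Type I interferons signal through the receptor chains Ifnar1 and Ifnar2 to a complex that includes Stat2 and Irf9 and binds the interferon-stimulated response element (ISRE) in promoters of antiviral genes such as Isg15, Ifit1 and Ifit3. Interferon-gamma, which activated CD8 T cells secrete, signals through Ifngr1 and Ifngr2 to gamma-activated sites (GAS) in promoters, and it induces Irf1 and the GTPases that guard cells against intracellular pathogens. The same cells can therefore be both the source of interferon-gamma and its target.

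The library labelled Nfatc1-deficient came from mice with floxed Nfatc1 and Cd4-Cre (Nfatc1f/f×Cd4-Cre), in which Cre is made in T cells, and the library labelled wild type came from C57/B6N wild-type mice. In both, CD8 T cells were taken from mesenteric lymph nodes with affinity beads, cultured with a commercial mouse Th17 cytokine and antibody kit, and then stimulated with 100 ng/ml PMA plus 10 μg/ml ionomycin over 3 h, a pair of drugs that bypasses the T-cell receptor. The ages of the mice, and how many were pooled in a library, are not stated in the sources used here. Nfatc1 itself stood at 136 CPM (UMIs per 1000000 UMIs of the library) in the deficient-labelled library and 39.8 CPM in the wild-type-labelled library, which goes against the genotype label. The kit reads transcript 3′ ends, and tags outside the deleted part check nothing, so the libraries are called by their labels throughout.

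With barcodes under 500 genes or over 10% mitochondrial UMIs left out, the deficient-labelled library held 709 of 754 cells with 17898193 UMIs, and the wild-type-labelled library held 1018 of 1149 cells with 24452538 UMIs. Median depth was 21436 UMIs per cell in the deficient-labelled library, against 20906 in the wild-type-labelled library, and 0 barcodes were shared. Each genotype had 1 library, so no difference had a replicate check and no test was run, and genotype and library cannot be told apart. All intervals are 95% and cover counting error only. Markers fixed for CD8 T cells were all detected in both libraries. Summed B-cell markers stood at 1.73 CPM in the deficient-labelled and 3.31 CPM in the wild-type-labelled library, with Cd22 at 0 in both. Summed myeloid markers stood at 0.670 CPM in the deficient-labelled and 1.02 CPM in the wild-type-labelled library. Summed dendritic-cell markers stood at 4.08 CPM in the deficient-labelled and 3.11 CPM in the wild-type-labelled library, with Clec9a and Siglech at 0 in both libraries. Cells were called Ifng-high when Ifng made up at least 10 of every 10000 UMIs of the cell, which took in 303 deficient-labelled cells (42.7%) and 92 wild-type-labelled cells (9.04%). Between 5 and 20 Ifng UMIs per 10000, around that limit, lay 55 deficient-labelled and 46 wild-type-labelled cells.

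Promoters of 6 members are shown because they carry the 2 kinds of interferon element and belong to members whose levels are described below, from nearly silent (Isg15, Ifit3) to abundant (Irf8). They run from 250 bases before to 50 bases after the start of the gene, 5′ to 3′ on the gene's strand, from RefSeq on GRCm38.p6. Capitals mark each ISRE core (GAAA, any 2 bases, then GAAA, or on the other strand TTTC, any 2 bases, then TTTC) and each GAS (TTC, any 3 bases, then GAA, which reads the same on both strands). Cores that overlap form 1 run of capitals. Positions count from the RefSeq start, which can differ from that of the GENCODE coordinates printed with the results: the Irgm1 window lies wholly inside the GENCODE gene, and the Gbp2 start lies downstream of the GENCODE start. Isg15 (chr4:156200769-156201068, minus strand) held 3 overlapping ISRE cores starting at positions -78, -72 and -66 from the gene start. Ifit3 (chr19:34583279-34583578, plus strand) held ISRE cores at -156 and -122. Gbp2 (chr3:142620413-142620712, plus strand) held an ISRE core at -59, and Irgm1 (chr11:48871371-48871670, minus strand) held 2 overlapping cores at -30 and -24. Irf1 (chr11:53769764-53770063, plus strand) held a GAS at -90, and Irf8 (chr8:120736108-120736407, plus strand) held a GAS at -171 and another at -153.
Isg15: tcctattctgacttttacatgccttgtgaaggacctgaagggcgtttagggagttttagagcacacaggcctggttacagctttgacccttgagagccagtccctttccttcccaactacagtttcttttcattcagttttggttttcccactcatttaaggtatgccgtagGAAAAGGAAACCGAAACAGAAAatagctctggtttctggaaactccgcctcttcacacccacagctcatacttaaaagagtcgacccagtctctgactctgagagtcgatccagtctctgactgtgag
Ifit3: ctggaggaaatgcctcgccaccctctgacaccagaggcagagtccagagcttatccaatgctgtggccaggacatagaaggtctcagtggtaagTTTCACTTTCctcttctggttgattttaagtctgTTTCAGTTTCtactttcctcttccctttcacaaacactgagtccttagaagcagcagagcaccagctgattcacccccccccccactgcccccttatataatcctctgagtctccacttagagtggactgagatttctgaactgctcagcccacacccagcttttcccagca
Gbp2: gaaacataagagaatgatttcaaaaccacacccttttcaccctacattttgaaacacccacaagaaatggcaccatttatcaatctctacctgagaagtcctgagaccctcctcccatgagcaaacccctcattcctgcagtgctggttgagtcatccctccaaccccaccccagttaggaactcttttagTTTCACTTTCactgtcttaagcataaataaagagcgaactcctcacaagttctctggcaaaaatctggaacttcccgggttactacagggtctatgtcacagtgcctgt
Irgm1: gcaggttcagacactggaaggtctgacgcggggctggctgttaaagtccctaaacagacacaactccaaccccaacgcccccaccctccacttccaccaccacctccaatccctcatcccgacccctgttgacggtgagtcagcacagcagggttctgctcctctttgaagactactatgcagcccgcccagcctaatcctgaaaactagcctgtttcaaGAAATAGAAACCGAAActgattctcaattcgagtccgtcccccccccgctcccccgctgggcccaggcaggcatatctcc
Irf1: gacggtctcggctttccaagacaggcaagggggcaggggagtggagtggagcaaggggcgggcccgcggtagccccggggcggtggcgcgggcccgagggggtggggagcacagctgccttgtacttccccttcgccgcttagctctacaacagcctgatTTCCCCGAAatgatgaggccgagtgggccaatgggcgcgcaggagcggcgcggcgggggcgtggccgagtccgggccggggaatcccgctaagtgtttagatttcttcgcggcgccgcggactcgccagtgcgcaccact
Irf8: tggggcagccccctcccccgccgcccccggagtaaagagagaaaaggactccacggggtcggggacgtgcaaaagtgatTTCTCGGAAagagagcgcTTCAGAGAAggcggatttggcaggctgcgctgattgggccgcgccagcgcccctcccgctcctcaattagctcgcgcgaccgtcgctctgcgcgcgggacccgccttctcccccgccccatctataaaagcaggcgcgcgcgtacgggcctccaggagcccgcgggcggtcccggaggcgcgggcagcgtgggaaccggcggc
Of the 38 members, 29 had an entry in the promoter table. An ISRE core stood in 16 of these 29 promoters (55.2%), against 3.49% of all 27025 promoters of the same length with 1 promoter per gene. A GAS stood in 9 of 29 (31.0%), against 8.47% of all promoters, and 4 of 29 held both (13.8%), against 0.514% of all promoters. By role, ISRE cores stood in 4 of 4 sensor promoters, 4 of 5 GTPase promoters, 6 of 12 antiviral effector promoters, 1 of 3 Schlafen and Ly6 promoters and 1 of 5 transcription factor promoters. A GAS stood in 5 of 12 antiviral effector promoters, 2 of 5 GTPase promoters and 2 of 5 transcription factor promoters. The Irf7 promoter held neither set of letters in this window. Ly6a, Usp18, Ifi27l2a, Dhx58, Iigp1, Zbp1, Rtp4 and Parp14 had no entry.

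The interferon programme of these cells was uneven, with a few abundant members and an antiviral core close to silence in both libraries. Members together took 0.167% of UMIs in the deficient-labelled library, against 0.226% in the wild-type-labelled library. Slfn2, a Schlafen gene that keeps T cells quiescent, alone held 61.8% of member UMIs in the deficient-labelled library and 39.3% in the wild-type-labelled library. Irf8, Ifi27l2a, Ly6a and Bst2 were the next 4 in both. At the other end, Ifit1, Rsad2, Usp18, Oasl1, Oasl2 and Oas1a had at most 5 UMIs in each library. Levels compared between genes are CPM, which in a 3′ kit count transcripts and are not scaled by length.

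**Figure D1:**
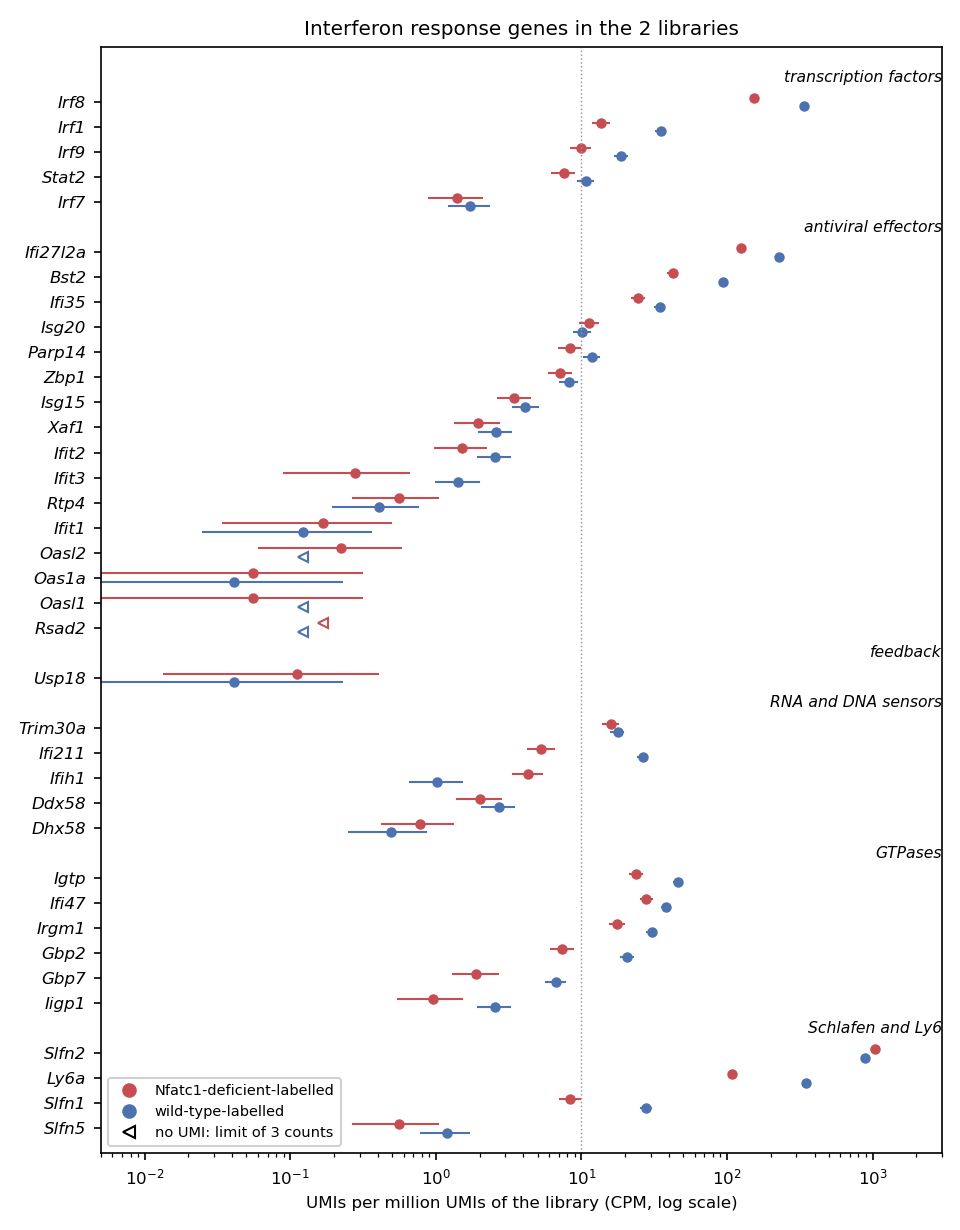
Level of each of the 37 measured members in CPM on a log axis, grouped by role, in the deficient-labelled (red) and the wild-type-labelled (blue) library, with exact Poisson 95% intervals. Open triangles mark a count of 0 at the limit of 3 counts, 0.168 CPM in the deficient-labelled and 0.123 CPM in the wild-type-labelled library, and the dotted line marks 10 CPM. Blue points lie to the right of red ones for most abundant members other than Slfn2 and Isg20.

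Most members with enough counts were lower in the deficient-labelled library. A mean of at least 10 CPM over both libraries was reached by 17 of the 37 members, Parp14 being the last inside (8.32 CPM in deficient-labelled and 11.8 CPM in wild-type-labelled cells) and Stat2 the first outside (7.54 CPM in deficient-labelled and 10.7 CPM in wild-type-labelled cells). Of these 17, 7 were lower there by at least 2-fold on log2 of CPM plus 1, where 1.92% of 7020 genes were that much lower. At least 2-fold higher were 0 of the 17, where 1.97% of genes were. The median log2 ratio of the 17 was -0.86, against 0.03 over all genes, and 15 of the 17 lay below 1, as did 46.4% of all genes. Over all 37 members, with the low ones included, the median was -0.45. The 7 lower members were Irf1, Irf8, Ly6a, Slfn1, Ifi211, Gbp2 and Bst2. Among cells called G1, which were 73.2% of deficient-labelled cells, against 68.2% of wild-type-labelled cells, the median was -0.97. The cells with no UMI of the B-cell, myeloid and dendritic-cell markers gave -0.97 as well.

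Transcription factors of the interferon pathway were lower in the deficient-labelled library as a group, at 186 CPM summed over 5 genes against 405 CPM in the wild-type-labelled library. Irf8 (chr8:120736358-120756694, mm10), a factor best known from myeloid and B cells that activated CD8 T cells also express, supplied most of that sum. It stood at 154 CPM in the deficient-labelled and 338 CPM in the wild-type-labelled library, 2.20-fold lower (2.11 to 2.30). With every cell thinned to 5000 UMIs, an Irf8 UMI was seen in 37.4% of deficient-labelled cells, against 64.5% of wild-type-labelled cells. Irf1 (chr11:53770014-53778374), a factor that interferon-gamma induces, stood at 13.6 CPM in the deficient-labelled and 35 CPM in the wild-type-labelled library, 2.57-fold lower (2.22 to 2.97). Irf9, the DNA-binding subunit of the type I complex, stood at 9.89 CPM in deficient-labelled and 18.8 CPM in wild-type-labelled cells, and its partner Stat2 at 7.54 CPM in deficient-labelled and 10.7 CPM in wild-type-labelled cells. Irf7, the amplifier of type I interferon production, was low in both, at 1.40 CPM in deficient-labelled and 1.72 CPM in wild-type-labelled cells.

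The Schlafen and Ly6 members went separate ways. Ly6a (chr15:74994877-74998031), encoding the surface protein Sca-1 of activated T cells, stood at 109 CPM in the deficient-labelled and 350 CPM in the wild-type-labelled library, and at 5000 UMIs per cell it was seen in 27.9% of deficient-labelled cells, against 64.7% of wild-type-labelled cells. Slfn1 was 3.32-fold lower (2.78 to 3.99), at 8.38 CPM in deficient-labelled and 27.8 CPM in wild-type-labelled cells, with UMIs in 90 deficient-labelled and 335 wild-type-labelled cells. Slfn2 (chr11:83065112-83070678), a neighbour of Slfn1 on chromosome 11, was the exception. It stood at 1032 CPM in the deficient-labelled and 888 CPM in the wild-type-labelled library, 1.16-fold higher (1.14 to 1.19), and at 5000 UMIs per cell it was seen in 91.8% of deficient-labelled cells, against 92.0% of wild-type-labelled cells. Slfn5 had 10 UMIs in the deficient-labelled and 29 UMIs in the wild-type-labelled library. Schlafen genes resemble one another, as do the Ly6, Gbp, Oas, Ifit, Ifi27 and Trim30 families, and counts of their members are uncertain where reads are shared.

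Among 16 measured antiviral effectors, 5 reached the 10 CPM mean and 1 of these, Bst2, was at least 2-fold lower, where 1.92% of all genes were. Bst2 (chr8:71534255-71537456), encoding tetherin, which holds budding virus at the cell surface, stood at 42.5 CPM in the deficient-labelled and 93.9 CPM in the wild-type-labelled library, 2.21-fold lower (2.04 to 2.40). Ifi27l2a, an interferon-induced mitochondrial protein gene, stood at 124 CPM in deficient-labelled and 227 CPM in wild-type-labelled cells. Ifi35 stood at 24.6 CPM in deficient-labelled and 34.4 CPM in wild-type-labelled cells and Parp14, an ADP-ribosyltransferase, at 8.32 CPM in deficient-labelled and 11.8 CPM in wild-type-labelled cells. Isg20, an RNA exonuclease, was the only effector of the 5 above 1, at 11.3 CPM in the deficient-labelled and 10.1 CPM in the wild-type-labelled library, with an interval of the ratio from 0.924 to 1.35. Among these 5 effectors the interval of Isg20 held 1 and those of the other 4 lay below 1, where 29.3% of all genes lay below.

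Among sensors of foreign nucleic acid, Ifi211 was lower and Ifih1, at low counts, higher in the deficient-labelled library. Ifi211 (chr1:173896345-173913046), a member of the DNA-binding HIN-200 family, stood at 5.31 CPM in the deficient-labelled and 26.3 CPM in the wild-type-labelled library, 4.95-fold lower (3.99 to 6.21). It had UMIs in 56 deficient-labelled and 271 wild-type-labelled cells. Its relatives lie beside it in the genome and are alike in sequence, so its count is uncertain. Ifih1, encoding the RNA sensor MDA5, was under the 10 CPM mean but higher in the deficient-labelled library, at 4.30 CPM in deficient-labelled and 1.02 CPM in wild-type-labelled cells, a ratio of 4.21 (2.65 to 6.90). Its 77 UMIs in the deficient-labelled library came from 31 cells with at most 14 in any cell, and its 25 UMIs in the wild-type-labelled library came from 21 cells. Among Ifng-high cells its ratio was 1.23 (0.494 to 3.65), from 26 deficient-labelled and 6 wild-type-labelled UMIs. The other cells held 51 deficient-labelled and 19 wild-type-labelled UMIs of it. The related sensors Ddx58 (RIG-I, 2.01 CPM in deficient-labelled and 2.70 CPM in wild-type-labelled cells) and Dhx58 (LGP2, 0.782 CPM in deficient-labelled and 0.491 CPM in wild-type-labelled cells) had intervals of the ratio that held 1, as did the regulator Trim30a at 15.9 CPM in deficient-labelled and 17.7 CPM in wild-type-labelled cells.

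The GTPase members, which build defences on the membranes around intracellular pathogens, summed to 79.4 CPM in the deficient-labelled and 144 CPM in the wild-type-labelled library. Gbp2, a guanylate-binding protein gene, was 2.79-fold lower (2.30 to 3.41), at 7.38 CPM in deficient-labelled and 20.6 CPM in wild-type-labelled cells. The immunity-related GTPases were lower by smaller ratios. Igtp (chr11:58199556-58207591) stood at 23.7 CPM in deficient-labelled and 45.8 CPM in wild-type-labelled cells, Irgm1 (chr11:48861968-48871683) at 17.5 CPM in deficient-labelled and 30.4 CPM in wild-type-labelled cells and Ifi47 at 28.0 CPM in deficient-labelled and 38.1 CPM in wild-type-labelled cells. All 4 intervals of the ratio lay below 1, and Gbp7 (1.90 CPM in deficient-labelled and 6.67 CPM in wild-type-labelled cells) and Iigp1 (0.95 CPM in deficient-labelled and 2.54 CPM in wild-type-labelled cells), both under the 10 CPM mean, had intervals below 1 too. Over all genes, 29.3% had an interval wholly below 1 in this comparison and 34.3% wholly above it.

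The core antiviral genes of the type I response were close to silent in both libraries. Over the 10 core genes measured (Isg15, Ifit1, Ifit2, Ifit3, Rsad2, Usp18, Oasl1, Oasl2, Oas1a and Irf7), 130 UMIs were counted in the deficient-labelled library, against 245 in the wild-type-labelled library, or 7.26 CPM in deficient-labelled and 10.0 CPM in wild-type-labelled cells for all 10 together. Isg15, the ubiquitin-like modifier that is usually among the first genes induced, stood at 3.46 CPM in the deficient-labelled and 4.13 CPM in the wild-type-labelled library. Ifit3, of the same gene family as Ifit1, had 5 UMIs in deficient-labelled and 35 UMIs in wild-type-labelled cells. Rsad2, encoding viperin, had no UMI in either library, which allows up to 0.168 CPM in the deficient-labelled and 0.123 CPM in the wild-type-labelled library. Ifit1 had 3 UMIs in each, and Usp18, which shuts the type I receptor down, had 2 in deficient-labelled and 1 in wild-type-labelled cells. The remaining low members ranged up to 7.54 CPM in the deficient-labelled and 10.7 CPM in the wild-type-labelled library, both for Stat2. Of the 20 measured members under the 10 CPM mean, 6 (Ifit2, Ifit3, Stat2, Slfn5, Gbp7 and Iigp1) had an interval of the ratio below 1 and 1, Ifih1, above it, where 29.3% of genes at the 10 CPM mean lay below 1 and 34.3% above. Zbp1, a sensor of nucleic acids in the Z form, stood at 7.15 CPM in deficient-labelled and 8.18 CPM in wild-type-labelled cells, Xaf1 at 1.96 CPM in deficient-labelled and 2.58 CPM in wild-type-labelled cells and Rtp4 at 0.559 CPM in deficient-labelled and 0.409 CPM in wild-type-labelled cells, all with intervals that held 1.

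Few cells held more than 1 core gene. A core gene was seen in 97 deficient-labelled cells (13.7%) and 144 wild-type-labelled cells (14.1%), and at least 2 core genes in 7 deficient-labelled and 20 wild-type-labelled cells. At least 3 core genes were seen in 0 deficient-labelled and 3 wild-type-labelled cells. Cells with an Ifit1 or Ifit3 UMI numbered 8 in the deficient-labelled library, against 23 in the wild-type-labelled library. In the wild-type-labelled library these 23 cells held the other core genes at 46.3 CPM against 7.65 CPM in the remaining cells, 6.05-fold higher (3.78 to 9.29), with Isg15 at 27.0 CPM in them against 3.63 CPM in the remaining cells. This rests on 24 UMIs in the 23 cells, 14 of them Isg15. A single cell of that library held 11 Isg15 UMIs, and whether it was among the 23 was not tested. The 8 deficient-labelled cells held 0 UMIs of the other core genes, against 6.93 CPM in the remaining cells, with an interval of the ratio from 0 to 1.88, so that no difference was detectable at this depth. Summed transcription factors in these 8 cells stood at 76.4 CPM (22 UMIs), against 188 CPM in the remaining cells. In the 23 wild-type-labelled cells they stood at 434 CPM, against 404 CPM in the remaining cells. GTPase members were higher in such cells of both libraries. They stood at 191 CPM in them (55 UMIs) against 77.6 CPM in the remaining cells in the deficient-labelled library. In the wild-type-labelled library they stood at 262 CPM in them against 142 CPM in the remaining cells. The 8 deficient-labelled cells were deeper, with a median of 29020 UMIs against 21375 in the remaining cells. The 23 wild-type-labelled cells had a median of 20523 UMIs against 20911. No share over all genes was computed for this split, and the part of depth or of single cells in it was not tested. Libraries hold free RNA that gives UMIs in cells that do not express a gene, and no cell type that should lack these genes was present to measure it.

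Many of the differences between libraries were also present within each Ifng class, although not for every member. The classes do not match Ifng exactly, since Ifng stood at 106 CPM in deficient-labelled and 56.9 CPM in wild-type-labelled other cells. Within Ifng-high cells, 14 members reached the 10 CPM mean and 5 were lower in the deficient-labelled library by at least 2-fold, where 3.44% of genes were. At least 2-fold higher were 0, where 1.6% of genes were. The interval of the ratio lay below 1 for 8 of the 14 and above 1 for 1, Slfn2, where 19.8% of genes lay below and 21.3% above. The median log2 ratio of the 14 was -0.73 against 0.04 over all genes. Within the other cells, 16 members reached the mean and 7 were at least 2-fold lower, where 1.51% of genes were, with a median of -0.70 against 0.11 over all genes. At least 2-fold higher were 0, where 2.55% were. The interval lay below 1 for 12 of the 16 and above 1 for 1, again Slfn2, where 17.8% of genes lay below and 41.3% above. The leading members were lower in both classes. Ly6a stood at 130 CPM in deficient-labelled and 471 CPM in wild-type-labelled Ifng-high cells, and at 88.6 CPM in deficient-labelled against 336 CPM in wild-type-labelled other cells. Irf8 stood at 159 CPM in deficient-labelled against 327 CPM in wild-type-labelled Ifng-high cells and at 149 CPM in deficient-labelled against 340 CPM in wild-type-labelled other cells. Irf1 stood at 9.88 CPM in deficient-labelled against 25.1 CPM in wild-type-labelled Ifng-high cells and at 17.2 CPM in deficient-labelled against 36.1 CPM in wild-type-labelled other cells. Bst2 stood at 45.4 CPM in deficient-labelled against 101 CPM in wild-type-labelled Ifng-high cells and at 39.7 CPM in deficient-labelled against 93.1 CPM in wild-type-labelled other cells. Of the members at the mean, Irf9, Ifi35, Irgm1, Trim30a and Isg20 had intervals that held 1 among Ifng-high cells. Among the other cells those of Ifi47, Trim30a and Parp14 did. Gbp2 and Slfn1, at least 2-fold lower over all cells, were under the 10 CPM mean among Ifng-high cells. The interval of Gbp2 held 1 there (0.602, 0.364 to 1.02), and that of Slfn1 lay below 1 (0.274, 0.160 to 0.468). Ifi35 stood at 24.7 CPM in deficient-labelled against 25.6 CPM in wild-type-labelled Ifng-high cells. Ifi47 stood at 18.4 CPM in deficient-labelled against 34.9 CPM in wild-type-labelled Ifng-high cells and at 37.1 CPM in deficient-labelled against 38.5 CPM in wild-type-labelled other cells. Isg20, near equality over all cells, stood at 16.4 CPM in deficient-labelled against 18.7 CPM in wild-type-labelled Ifng-high cells (ratio 0.881, 0.628 to 1.26) and at 6.52 CPM in deficient-labelled against 9.19 CPM in wild-type-labelled other cells (0.710, 0.523 to 0.952). Its pooled ratio of 1.12 therefore lay above the ratio in either class. Whether such differences vary between classes was not tested.

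Within each library, Ifng-high cells held less of Irf1 and of most GTPase members than the other cells, and more of Isg20 and Ly6a. In the deficient-labelled library 12 members reached the 10 CPM mean over Ifng-high and other cells. At least 2-fold lower in Ifng-high cells was 1 of them, Irgm1, where 2.83% of genes were, and at least 2-fold higher was 1, Isg20, where 0.563% were. In the wild-type-labelled library 17 members reached the mean. At least 2-fold lower were 3 (Irgm1, Slfn1 and Gbp2), where 1.08% of genes were, and 0 were at least 2-fold higher, where 1.24% were. The median log2 ratio was -0.39 in the deficient-labelled library (-0.20 over all genes) and -0.46 in the wild-type-labelled library (-0.12 over all genes). Ifng itself stood at 15043 CPM in Ifng-high cells of the deficient-labelled library and 12577 CPM in those of the wild-type-labelled library. Its part in the medians over all genes was not tested. With TMM scaling the median over all genes moved to 0.04 in the deficient-labelled library, against -0.02 in the wild-type-labelled library. The member medians moved to -0.15 in the deficient-labelled library, against -0.35 in the wild-type-labelled library.

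**Figure D2:**
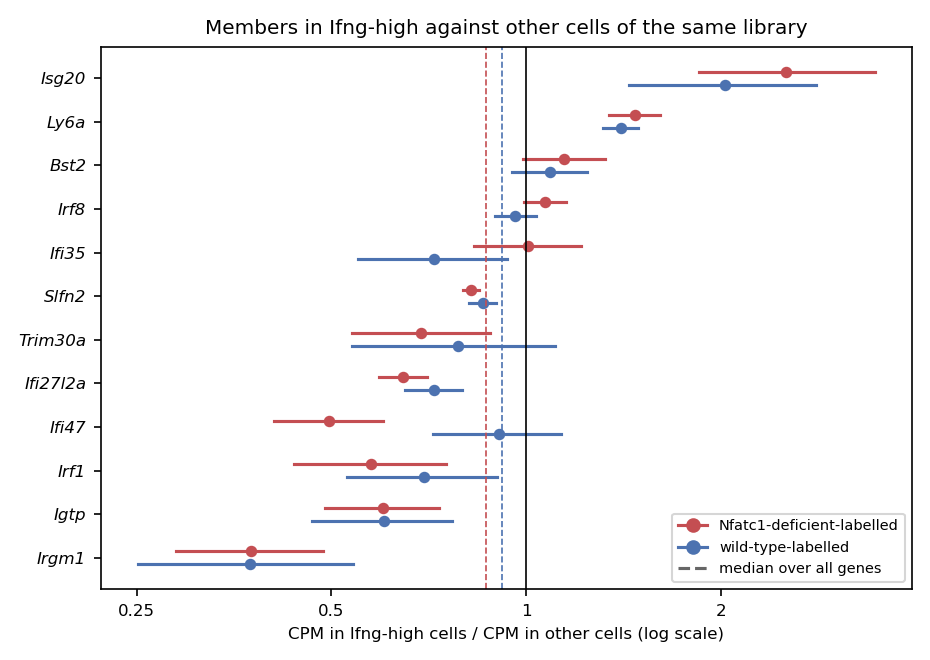
Ratio of CPM in Ifng-high cells to CPM in other cells of the same library, on a log axis, for the 12 members with a mean of at least 10 CPM in both libraries, with 95% counting intervals. Red is the deficient-labelled and blue the wild-type-labelled library, the solid line marks equality and the dashed lines the median over all genes. Isg20 and Ly6a lie to the right of 1 in both libraries, and Irgm1 lies farthest to the left, near 0.375 in both.

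No member had its interval on opposite sides of 1 in the 2 libraries. The interval of the ratio lay below 1 in both for 5 of the 12 members that reached the mean in both (Irf1, Slfn2, Ifi27l2a, Igtp and Irgm1). It lay above 1 in both for 2 (Isg20 and Ly6a). The share of all genes on the same side of 1 in both libraries at once is not given here. Taken singly, the deficient-labelled library had 7 of 12 members below 1 and 2 above, where 51.1% of all genes lay below and 5.57% above. With a share that large, 7 of 12 does not set the members below 1 apart from the rest there. For the wild-type-labelled library, 10 of 17 members lay below 1 and 2 above, where 25.1% of all genes lay below and 7.88% above. Irgm1, which controls autophagy and the other GTPases of its family, stood at 9.42 CPM in Ifng-high and 25.1 CPM in other deficient-labelled cells, and at 12.2 CPM in Ifng-high against 32.5 CPM in other wild-type-labelled cells. Isg20 (chr7:78913424-78920396) stood at 16.4 CPM in Ifng-high and 6.52 CPM in other deficient-labelled cells, and at 18.7 CPM in Ifng-high against 9.19 CPM in other wild-type-labelled cells. Ly6a was 1.47 times as high in Ifng-high cells of the deficient-labelled library (1.34 to 1.61) and 1.40 times as high in those of the wild-type-labelled library (1.31 to 1.49). Irf8 had a ratio of 1.07 (0.992 to 1.15) in the deficient-labelled library and 0.963 (0.894 to 1.04) in the wild-type-labelled library. Bst2 had ratios of 1.14 (0.989 to 1.32) in the deficient-labelled and 1.09 (0.952 to 1.24) in the wild-type-labelled library. The remaining members with an interval below 1 were the GTPase Ifi47 in the deficient-labelled library (0.496, 0.408 to 0.600) and Trim30a there (0.688, 0.537 to 0.878). In the wild-type-labelled library they were Irf9 (0.601, 0.398 to 0.876), Slfn1 (0.426, 0.287 to 0.611), Ifi211 (0.655, 0.471 to 0.890), Ifi35 (0.721, 0.549 to 0.933) and Gbp2 (0.446, 0.283 to 0.672). Intervals held 1 for Ifi35 in the deficient-labelled library (1.01, 0.830 to 1.22), and in the wild-type-labelled library for Ifi47 (0.907, 0.718 to 1.13), Trim30a (0.784, 0.539 to 1.11) and Parp14 (0.882, 0.565 to 1.32). Among the members below 1 in both libraries, the deficient-labelled library had ratios of 0.575 for Irf1, 0.601 for Igtp, 0.646 for Ifi27l2a and 0.822 for Slfn2. The wild-type-labelled library had 0.696 for Irf1, 0.603 for Igtp, 0.720 for Ifi27l2a and 0.857 for Slfn2. With TMM scaling the ratio of Slfn2 became 0.978 (0.95 to 1.01) in the deficient-labelled library. The other 6 members with intervals on the same side in both libraries stayed on their side of 1 in both. TMM raised all ratios within a library by a common factor. Intervals that end near 1, such as those of Irf8, Bst2 and Trim30a in the deficient-labelled library, therefore depend on the scaling. Ifng-high cells were deeper, with a median of 24168 UMIs in Ifng-high against 19488 in other deficient-labelled cells, and 24558 in Ifng-high against 20726 in other wild-type-labelled cells. They were less often called G1, at 69.3% against 76.1% of deficient-labelled cells, and 62.6% against 68.8% of wild-type-labelled cells. Among G1 cells the Irgm1 ratio was 0.301 (0.212 to 0.419) in the deficient-labelled library and 0.364 (0.220 to 0.567) in the wild-type-labelled library. In G1 cells of the wild-type-labelled library the intervals of Irf1 (0.870, 0.626 to 1.18), Igtp (0.769, 0.571 to 1.02) and Ifi27l2a (0.936, 0.820 to 1.06) held 1. Those of Slfn2, Irgm1, Isg20 and Ly6a did not. The part of free RNA and of depth in these ratios was not tested.

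The GTPase members were lowest in the cells with most Ifng. In the deficient-labelled library their summed level was 114 CPM in 322 cells with under 1 Ifng UMI per 10000, 72.3 CPM in 84 cells with 1 to 10, 69.8 CPM in 153 cells with 10 to 100 and 35.9 CPM in 150 cells with at least 100. In the wild-type-labelled library it was 149 CPM in 800 cells, 160 CPM in 126 cells, 117 CPM in 64 cells and 38.6 CPM in 28 cells of those classes. Both libraries therefore ended at like levels in the cells with most Ifng, with intervals of 30.5 to 41.9 CPM in the deficient-labelled and 26.2 to 54.7 CPM in the wild-type-labelled library. Irgm1 reached 4.97 CPM in the top class of the deficient-labelled library and 2.49 CPM in that of the wild-type-labelled library, from 22 UMIs in the deficient-labelled and 2 UMIs in the wild-type-labelled library. Isg20 ran the other way, with 22.3 CPM in the top class of the deficient-labelled library against 6.75 CPM in its lowest class, and 21.1 CPM in the top class against 8.96 CPM in the lowest class of the wild-type-labelled library. Irf1 in the top class was 9.48 CPM in the deficient-labelled and 7.46 CPM in the wild-type-labelled library, there from 6 UMIs. Ly6a was lower in deficient-labelled cells of every class, and in the top class it was 119 CPM in the deficient-labelled and 516 CPM in the wild-type-labelled library.

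**Figure D3:**
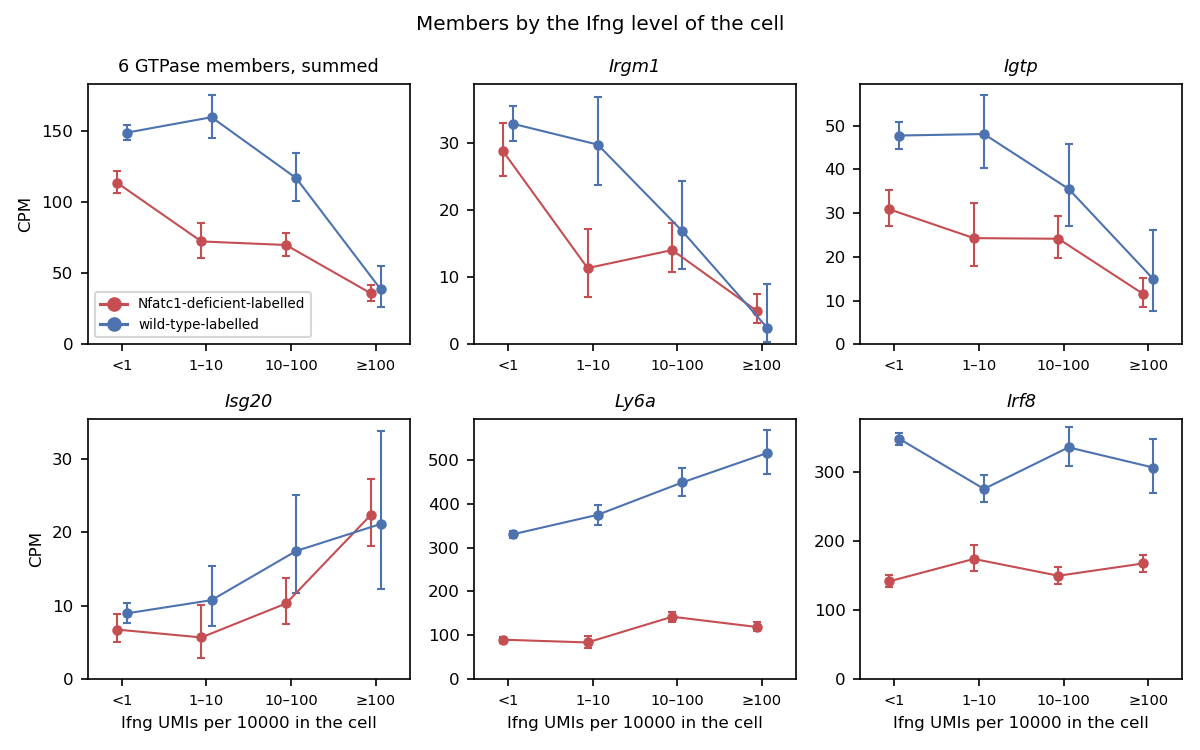
Level in CPM, with exact Poisson 95% intervals, of the 6 summed GTPase members and of 5 single members in cells grouped by their Ifng UMIs per 10000 UMIs, in the deficient-labelled (red) and the wild-type-labelled (blue) library. In the cells with most Ifng the GTPase sum ends at 35.9 CPM in the deficient-labelled and 38.6 CPM in the wild-type-labelled library, Isg20 is highest there, and Ly6a and Irf8 of the wild-type-labelled library lie above those of the deficient-labelled library in every class.

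GTPase members were higher in cells with an Igtp UMI, and so were several members outside the GTPases. Cells with an Igtp UMI, a split chosen after the values were seen, numbered 222 of 709 in the deficient-labelled and 450 of 1018 in the wild-type-labelled library. Irgm1 stood at 29.6 CPM in them and 10.3 CPM in the remaining cells of the deficient-labelled library, and at 49.9 CPM with an Igtp UMI against 12 CPM without in the wild-type-labelled library. Ifi47 stood at 43.6 CPM with an Igtp UMI against 18.8 CPM without in the deficient-labelled and 61.5 CPM with an Igtp UMI against 16 CPM without in the wild-type-labelled library. Irf1 was 2.25 times as high in such cells of the wild-type-labelled library (1.94 to 2.60), at 49 CPM with an Igtp UMI against 21.8 CPM without, whereas in the deficient-labelled library it stood at 14.0 CPM with an Igtp UMI against 13.4 CPM without, a ratio of 1.04 (0.796 to 1.36). Irf8 showed the same split, with 153 CPM with an Igtp UMI against 154 CPM without in the deficient-labelled and 432 CPM with an Igtp UMI against 250 CPM without in the wild-type-labelled library. Isg20 was lower in cells with an Igtp UMI of both libraries, at 8.27 CPM with an Igtp UMI against 13.2 CPM without in the deficient-labelled and 8.08 CPM with an Igtp UMI against 12.1 CPM without in the wild-type-labelled library. Cells with an Igtp UMI were deeper, with medians of 23861 against 20757 UMIs in the deficient-labelled and 22182 against 19990 UMIs in the wild-type-labelled library.

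Summed per cell, member UMIs had a median of 16 per 10000 in deficient-labelled cells (quartiles 11.2 and 21.5) and 21.8 per 10000 in wild-type-labelled cells (15.8 and 29.5). Slfn2 was its largest member, and without it the medians were 4.88 per 10000 in deficient-labelled cells and 11.8 per 10000 in wild-type-labelled cells. By class, the full sum had a median of 14.4 in Ifng-high and 17.1 in other deficient-labelled cells, and 21.0 in Ifng-high and 22.1 in other wild-type-labelled cells. Without Slfn2 the order of the medians within the deficient-labelled library turned round, at 5.10 in Ifng-high and 4.72 in other cells. The lower quartile turned too, at 3.12 in Ifng-high and 2.71 in other cells. The upper quartile did not, at 8.01 in Ifng-high and 8.89 in other cells, nor did the mean, at 6.17 in Ifng-high and 7.27 in other cells. Wild-type-labelled cells had medians of 11.4 in Ifng-high and 11.8 in other cells without Slfn2. The spread over cells was wide, and the quartiles of Ifng-high and other cells overlapped in both libraries. A member UMI was missing altogether in 1 deficient-labelled and 0 wild-type-labelled cells.

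**Figure D4:**
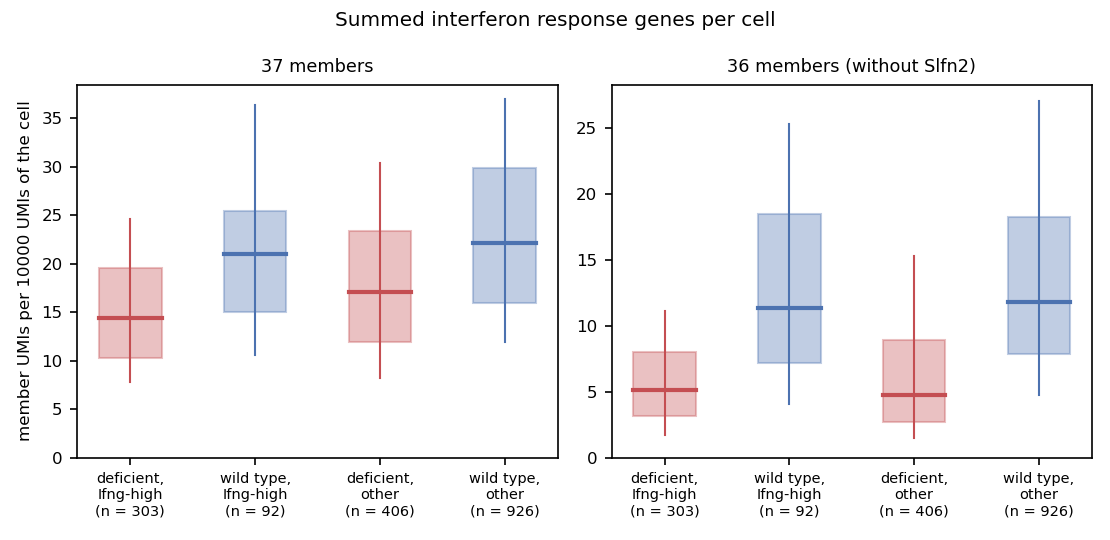
Member UMIs per 10000 UMIs of the cell for 37 members (left) and for 36 members without Slfn2 (right), in Ifng-high and other cells of each library. Lines in the boxes are medians, boxes span the quartiles and whiskers run between the lowest and the highest decile. Medians and quartiles of deficient-labelled cells (red) lie lower than those of wild-type-labelled cells (blue) of the same class in both panels. The boxes of the libraries overlap in each class.

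Upstream of the members, Ifng was the one abundant interferon, at 7368 CPM in the deficient-labelled and 1319 CPM in the wild-type-labelled library. Of 9 ligand genes, 7 had no UMI in either library, Ifnb1 among them, and Ifnk had 5 UMIs in the deficient-labelled library, against 17 in the wild-type-labelled library. The receptor chains were low, with Ifnar1 at 8.38 CPM in the deficient-labelled and 9.16 CPM in the wild-type-labelled library, Ifnar2 at 30.5 CPM in deficient-labelled and 37.5 CPM in wild-type-labelled cells, and Ifngr1 at 11.3 CPM in deficient-labelled and 11.1 CPM in wild-type-labelled cells. Ifngr2, the signalling chain of the interferon-gamma receptor, stood at 2.91 CPM in deficient-labelled and 7.32 CPM in wild-type-labelled cells, a ratio of 0.397 (0.286 to 0.543). Of 15 receptor and signal genes at the 10 CPM mean, 0 were at least 2-fold apart between libraries, with Jak1 at 140 CPM in deficient-labelled and 136 CPM in wild-type-labelled cells, Jak2 at 317 CPM in deficient-labelled and 296 CPM in wild-type-labelled cells, Tyk2 at 12.5 CPM in deficient-labelled and 13.2 CPM in wild-type-labelled cells and the inhibitor Socs1 at 54.5 CPM in deficient-labelled and 73.0 CPM in wild-type-labelled cells. Of 6 nucleic acid sensing genes at that mean, 0 were at least 2-fold apart. Of 31 other interferon-induced genes at that mean, 5 (Sp140, Pml, Ly6e, Tap1 and Nlrc5) were lower in the deficient-labelled library by at least 2-fold. The 1 gene higher by that much was Ms4a4b, a membrane protein gene of T cells. It stood at 216 CPM in deficient-labelled and 72.3 CPM in wild-type-labelled cells. Among all 7020 genes at that mean, 1.92% were that much lower and 1.97% that much higher. With shares that small, 0 of 15 or 0 of 6 does not set those genes apart from the rest. Nlrc5, the activator of MHC class I genes, stood at 32.5 CPM in deficient-labelled and 77.3 CPM in wild-type-labelled cells and Tap1, which loads peptides for them, at 27.8 CPM in deficient-labelled and 60.3 CPM in wild-type-labelled cells.

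Of 14 receptor and signal genes at the 10 CPM mean in the deficient-labelled library, 1, Ifngr1, was at least 2-fold lower in Ifng-high cells. There 2.83% of all genes were that much lower, and 82.4% were lower by any amount. Of 16 such genes in the wild-type-labelled library 0 were at least 2-fold lower, where 1.08% of genes were. Ifngr1 stood at 7.01 CPM in Ifng-high against 15.4 CPM in other cells in the deficient-labelled and 10.5 CPM in Ifng-high against 11.2 CPM in other cells in the wild-type-labelled library. TMM moved the median log2 ratio over all genes of the deficient-labelled library from -0.20 to 0.04. A shift of that size would take Ifngr1, Ifi203 and Sp100 inside 2-fold there. Of 28 other interferon-induced genes at the mean in the deficient-labelled library, 2 were at least 2-fold higher in Ifng-high cells (Ifitm1 and Ifitm2) and 2 at least 2-fold lower (Ifi203 and Sp100), where 0.563% of genes were higher and 2.83% lower. Of 33 in the wild-type-labelled library, 4 were at least 2-fold higher (Ifitm1, Ifitm2, Ifitm3 and Ly6c2) and 0 lower, where 1.24% were higher and 1.08% lower. Ifi203 stood at 62.6 CPM in Ifng-high against 140 CPM in other deficient-labelled cells, and Sp100 at 13.2 CPM in Ifng-high against 30.6 CPM in other deficient-labelled cells. The Ifitm genes encode membrane proteins that hinder virus entry, with Ifitm1 at 88.4 CPM in Ifng-high against 24.7 CPM in other cells in the deficient-labelled and 292 CPM in Ifng-high against 20.5 CPM in other cells in the wild-type-labelled library. Ifitm2 was at 45.2 CPM in Ifng-high against 2.39 CPM in other cells in the deficient-labelled library, and 106 CPM in Ifng-high against 18.6 CPM in other cells in the wild-type-labelled library. Ly6c2 and Ifitm3 passed both the 10 CPM mean and the 2-fold limit in the wild-type-labelled library, at 37.7 CPM in Ifng-high against 1.64 CPM in other cells and 34.5 CPM in Ifng-high against 2.0 CPM in other cells. In the deficient-labelled library Ly6c2 stood at 0.460 CPM in Ifng-high against 0.979 CPM in other cells and Ifitm3 at 10.6 CPM in Ifng-high against 0.435 CPM in other cells, both under the mean of 10 CPM.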

How the data were processed

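The libraries came from the 3′ chemistry v3.1 of 10x Genomics, per the labels' protocols. The authors deposited a matrix of unnormalised UMI counts for each library. Cell Ranger 7.0.0 is named in the file headers, and mm10 in the submitters' processing notes. The authors' annotation and treatment of intronic reads are not stated in the sources used here. The 38 members and the other gene lists were chosen with earlier results of these data known.

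Counts were summed over kept cells and divided by the total of all genes (CPM), with multiplexing tags left out. Intervals (95%) are exact Poisson for levels, conditional binomial for ratios and Clopper-Pearson for shares. Those of sums treat UMIs as independent and leave out the spread between cells and mice. Ratios in the text are of CPM, and medians and 2-fold counts use log2 of CPM plus 1 among genes averaging at least 10 CPM over the 2 groups compared. Every member at that mean over the 2 libraries is named with its values in them, and the rest by name and range. Shares came from cells thinned to 5000 UMIs (11 deficient-labelled and 14 wild-type-labelled cells were shallower), and phases from S and G2/M scores on the thinned cells. Scrublet called 6 deficient-labelled and 5 wild-type-labelled doublets (0.846% and 0.491%), which were kept. Gene coordinates are from GENCODE M21. Python 3.11.15, NumPy 2.4.6, SciPy 1.17.1, pandas 2.3.3, scanpy 1.11.5, matplotlib 3.10.9, R 4.3.3 and edgeR 4.0.16 (TMM only) were used. Values of 1 signal gene are not reported here.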

Additional observations from a re-analysis of the deposited data

Results flagged for a closer look

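Counts of multiplexing tags, which enter none of the comparisons above, also fell on tags other than the library's own. In the deficient-labelled library 8.12% of tag counts lay on other tags, and in the wild-type-labelled library 12.3% did, although the library's own tag was the highest in every barcode of both. Which animals the tags mark is not stated in the sources used here, and the members were not compared by tag.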

How the results depend on the processing

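With 1 library per genotype no replicate could be left out. No paired analysis was possible because each group held 1 library. Of 169 alternative values for the comparisons, 1 reversed and 36 moved past the margin set for that kind of value, all given here. For the deficient-labelled over the wild-type-labelled library, the member median was -0.50 with a floor of 1 CPM, -0.97 in G1 cells, -0.97 in cells without markers of other lineages and -0.74 from means of per-cell CPM. The floor of 1 CPM gave 1 member at least 2-fold higher, and a floor of 20 CPM gave 4 lower. Within Ifng-high cells, G1 cells gave 8 lower members and a median of -1.19, and an Ifng cutoff of 20 gave 3 lower, both chosen after seeing the data.

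For Ifng-high over other cells of the deficient-labelled library, the median was -0.14 with a floor of 20 CPM, -0.15 with TMM and -0.14 with median ratio size factors. There 2 members were at least 2-fold lower with a pseudocount of 0.1, a floor of 1 CPM, a total without cytokine, mitochondrial and ribosomal genes, without called doublets, from means of per-cell CPM and with an Ifng cutoff of 20, 3 in G1 cells and 0 with a floor of 20 CPM. A pseudocount of 5 or a floor of 20 CPM left 0 higher. In the wild-type-labelled library 1 member, against 0, was higher with a pseudocount of 0.1, TMM, median ratio size factors, the reduced total, G1 cells and Ifng cutoffs of 5 and 20. There 1 member was lower with a pseudocount of 5 and 5 with a floor of 1 CPM.

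The median per-cell sum of the deficient-labelled minus that of the wild-type-labelled library was -5.85 per 10000. It was -2.85 without Slfn2, Irf8 and Ly6a, -9.56 on the reduced total and -4.75 over all deposited barcodes. For Ifng-high minus other deficient-labelled cells it was -2.74, against -0.383 without those 3 genes, -1.28 on the reduced total and 0.377 without Slfn2 alone (added after seeing the data), where the direction reversed. In the wild-type-labelled library, moves inside that margin took this sum, -1.07 per 10000, to -2.45 with an Ifng cutoff of 20 and -0.442 without Slfn2, and the member median, -0.46, to -0.21 in G1 cells and -0.29 with stricter cell filters. The cause of these changes was not tested, except that a floor changes which members are counted. Depth limits the 20 low members.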
